A study of Mus musculus with 6 samples.

Results

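The mRNAs of 9 genes of DNA methylation and imprint protection, Dnmt1, Dnmt3a, Dnmt3b, Dnmt3l, Uhrf1, Tet3, Dppa3, Zfp57 and Kdm1b, were compared between mouse oocytes of wild type (WT) and of Lsm14b-mutant (Lsm14b-KO) females. The genes were taken by symbol, and all 9 are among the 24255 genes of the expression table. Oocytes were fully-grown oocytes (FGOs) at the germinal vesicle (GV) stage, that is, grown oocytes still held in meiotic prophase. Each genotype had 3 libraries of 20 oocytes, called WT1 to WT3 and KO1 to KO3 here. All females received 5 IU of the gonadotropin PMSG 46 h before oocytes were collected. Both genotypes were kept on a C57BL/6J background, and the Lsm14b-KO females were homozygous for tm1a, an allele in which a reporter cassette interrupts Lsm14b in every cell. The age of the females is not given in the sources used here, nor is it stated whether the libraries of a genotype came from different mice, so p-values measure the spread between these libraries only. Since each library is a pool, a small change in every oocyte and a large change in a few oocytes cannot be told apart.

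DNA methylation is laid down on the maternal genome while the oocyte grows. DNMT3A is the enzyme that does so, helped by its catalytically inactive partner DNMT3L, and KDM1B clears H3K4 methylation from some imprinted regions so that they can be methylated. After fertilization DNMT1 copies the marks at each replication, guided by UHRF1, while the oxidase TET3 acts on the paternal genome, DPPA3 (also called STELLA) shields the maternal genome, and the zinc finger protein ZFP57 keeps imprinted regions methylated. LSM14B is an RNA-binding protein of stored maternal mRNA. The oocyte transcribes little once it is fully grown, and the meiotic and early embryonic stages draw on stored mRNA. Whether the mRNAs of each of these genes are used at those stages was not tested.

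The study's LACE-Seq experiment, which maps where a protein touches RNA, lists 20-nt sequences bound by LSM14B in oocytes. For 4 of the genes a listed sequence could be placed in the mRNA. The study also names Dppa3 among the mRNAs bound by LSM14B. It names the proteins DNMT1, DPPA3 and UHRF1 among the putative partners of LSM14B. For UHRF1 the study also reports binding to LSM14B by immunoprecipitation and Western blot. For each gene the first listed sequence that could be placed is shown, as 1 place in the mRNA where contact was recorded. Further listed sequences of the same gene are not shown, so these need not be the only contacts. Each was placed by an exact match to a GENCODE vM21 transcript (GRCm38) in which it occurs once. The Dnmt1 site (chr9:20908497-20908516, minus strand) is coding sequence in exon 37 of 39, and the Uhrf1 site (chr17:56309478-56309497, plus strand) is coding sequence in exon 3 of 17. The Dnmt1 transcript used has no annotated 3′UTR, so no 3′UTR site could be placed in it. The Zfp57 site (chr17:37004816-37004835, plus strand) lies in the 5′UTR, in exon 1 of 3, and the Tet3 site (chr6:83362707-83362726, minus strand) lies in the 3′UTR, in exon 11 of 11. Regions and exons hold for the transcript used, and Zfp57 has more than 1 annotated start, so its label may differ in another transcript. All of the genes were looked up, but a sequence was kept only if it was listed complete and occurred once in the transcript used. The listing used here is shortened, so contact cannot be called absent for the other genes.
Dnmt1 site: gatagctaccggttcttcgg
Uhrf1 site: gtgggtcacagtgaatcaga
Zfp57 site: aacaaattgtggctagaagc
Tet3 site: ttgcaatgtctcaaggcaat

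Expression is given as FPKM, fragments scaled to transcript length and to the depth of the library, which allows levels of different genes to be set beside each other. Lsm14b itself (chromosome 2, 180024987 to 180035465, plus strand, GRCm38) was at 2.77, 3.98 and 1.72 FPKM in WT1 to WT3, and it was listed at 0, 0 and 0.10 in KO1 to KO3. Depth could only be estimated, in relative terms and from very low FPKM values, since no read counts were used. With WT1 set to 1, the Lsm14b-KO libraries were at 1.33 to 2.17 by this estimate. Their summed FPKM ran the other way, from 564671 to 1029728 in Lsm14b-KO and from 1141324 to 1244182 in WT libraries. The Lsm14b-KO libraries were less alike than the WT libraries. Pearson's r of log2(FPKM + 1) across genes was 0.960 between KO1 and KO3, 0.974 between KO2 and KO3 and 0.917 between KO1 and KO2, while KO1 had an r of 0.952 to 0.954 and KO2 of 0.867 to 0.890 with the WT libraries. All 12 oocyte markers were found at 1 FPKM or more, led by Ooep at 3987 to 9390 FPKM. Of 13 cumulus and granulosa cell markers, 6 were listed at 0 in every library and 3 reached 1 FPKM, and their sum was 9.58 to 13.3 FPKM in WT and 5.82 to 9.41 FPKM in Lsm14b-KO libraries. The most abundant of them, Cyp19a1, was at 8.26 to 11.5 FPKM in WT and 3.00 to 5.76 FPKM in Lsm14b-KO libraries, and its part in the results was not tested. All 6 red blood cell markers found, Hba-a1 included, were at 0, and of 5 white blood cell markers only Cd68 was above 0, at up to 0.728 FPKM.

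The 9 mRNAs ran from barely detected to highly abundant. Dppa3 had the highest mean FPKM of all 24255 genes, and it alone made up 3.03% to 3.83% of the summed FPKM in WT libraries. Zfp57 ranked 277th by mean FPKM, Kdm1b 1209th, Dnmt1 1218th, Uhrf1 1622nd, Tet3 2676th and Dnmt3l 3187th. Dnmt3a and Dnmt3b stayed below 1 FPKM in every library.

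**Figure D1:**
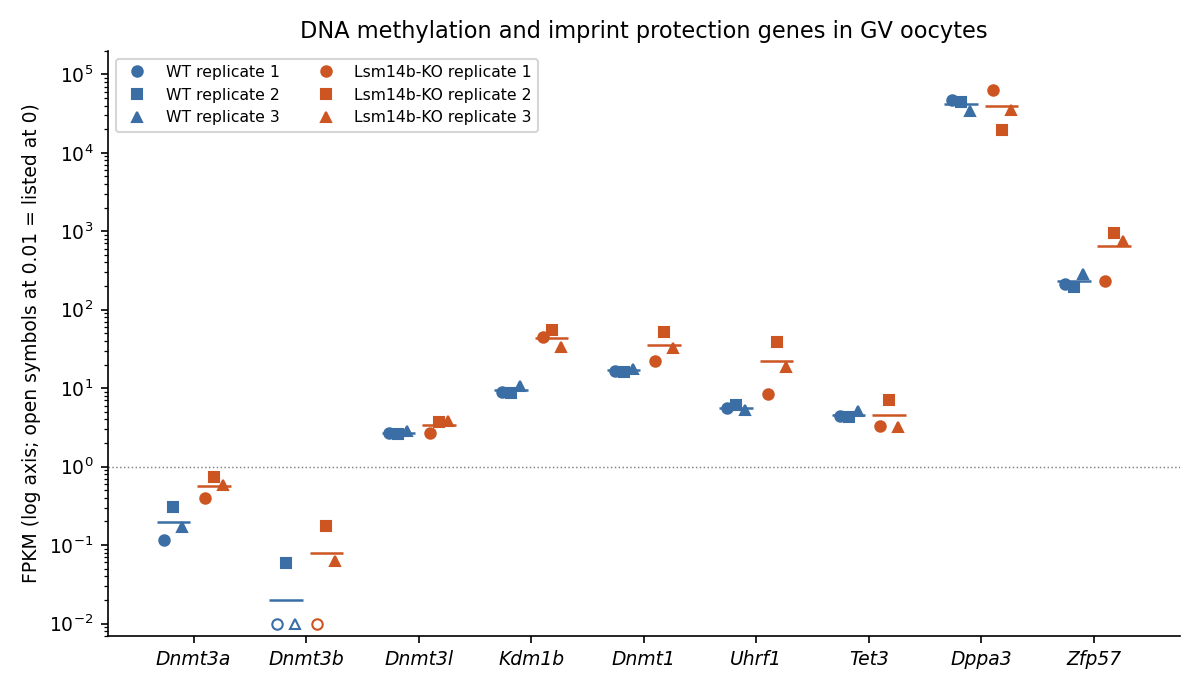
FPKM of each gene in the 6 libraries, on a log axis; symbols stand for replicates, colors for genotype, short bars for group means, and open symbols for values listed at 0. The Kdm1b values separate by genotype, at 8.60 to 10.7 FPKM in WT and 33.2 to 54.3 FPKM in Lsm14b-KO libraries, whereas the Dppa3 values overlap.

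To ask which of these mRNAs differed between the genotypes, limma was run on log2(FPKM + 1) for every gene that reached 1 FPKM in any library. Of the 9 genes, 7 entered the test and 2 passed an adjusted p of 0.05, Kdm1b and Uhrf1, both of them higher in Lsm14b-KO FGOs. All 7 reached 1 FPKM in both genotypes. The remaining 5 tested genes, Dnmt1, Zfp57, Dnmt3l, Tet3 and Dppa3, did not pass. Among all 6398 tested genes 1383, or 21.6%, passed, 6.38% as higher and 15.2% as lower in Lsm14b-KO. A further description is whether the 3 Lsm14b-KO values all lay beyond the 3 WT values. This held for 3 of the 7 tested genes, Kdm1b, Uhrf1 and Dnmt1, each time with Lsm14b-KO above, and for 45.0% of all tested genes, or 19.1% with Lsm14b-KO above. Fold changes on the log2(FPKM + 1) scale understate the change of genes with low values.

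Kdm1b, the H3K4 demethylase needed to set some maternal imprints, had the lowest adjusted p of the 7 tested genes. It was at 8.97, 8.60 and 10.7 FPKM in WT1 to WT3, and at 44.5, 54.3 and 33.2 FPKM in KO1 to KO3. Every Lsm14b-KO library was at least 3.53-fold above the WT mean, including KO1, which was at most 1.53-fold above the WT mean for the other 6 tested genes. The mean was 9.41 ± 1.10 FPKM in WT and 44.0 ± 10.6 FPKM in Lsm14b-KO libraries (SD, n = 3 each), a 4.68-fold ratio. Its fitted log2 fold change was 2.09 (SE 0.28, limma adjusted p 0.0034). It passed in all 16 alternative analyses, with log2 fold changes of 1.93 to 2.75 and adjusted p-values of 0.0014 to 0.034. An exact permutation test (two-sided) returned 0.10, which is the lower limit for 3 libraries against 3.

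Kdm1b (chromosome 13, 47043499 to 47085279, plus strand, GRCm38, protein coding) overlaps Dek and Tpmt on the opposite strand, and 505 nt of its 4987-nt transcript are also exon sequence of those genes. Whether the libraries keep strand is not stated, so reads from these shared bases cannot be told apart. Dek, which codes for a chromatin protein, was at 11.3, 9.10 and 8.63 FPKM in WT1 to WT3. It was at 2.57, 1.97 and 2.59 FPKM in KO1 to KO3, a fitted log2 fold change of -1.66 (SE 0.21, limma adjusted p 0.0031). Tpmt, which codes for a thiopurine methyltransferase, was at 59.5 ± 9.41 FPKM in WT and 41.8 ± 32.9 FPKM in Lsm14b-KO libraries (SD, n = 3 each) and did not pass (log2 fold change -0.78, limma adjusted p 0.29). The fitted values of Dek and Tpmt were both below 0, and the part of shared reads in the Kdm1b values was not tested.

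The 250 bases before an annotated start of Kdm1b and of Uhrf1 are shown because these are the 2 genes that passed. They are taken from RefSeq (GRCm38.p6), 5′ to 3′, with each CG, the dinucleotide that can be methylated, in capitals. The search was for CG alone, which reads the same on both strands and shares no bases with another match. The Kdm1b window (chr13:47043249-47043498, plus strand) holds 22 CG, and 14.8% of all 32851 promoter windows of this length hold as many. The Uhrf1 window (chr17:56303087-56303336, plus strand) holds 10 CG, a number reached by 37.8% of windows. Promoters of 8 of the 9 genes were matched, all but Dppa3, with 38 CG for Dnmt3a, 21 for Dnmt3b, 17 for Tet3, 6 for Zfp57, 5 for Dnmt3l and 2 for Dnmt1. Uhrf1 has 2 annotated starts, and Dnmt3a, Zfp57, Dnmt3l and Dnmt1 have 3 each. For these genes only the start nearest to the 5′ end of the locus in the expression table was used, and other starts may differ in CG. The median over all windows was 6, and 92.1% held at least 1. Methylation of these bases was not measured in the data used here.
Kdm1b promoter: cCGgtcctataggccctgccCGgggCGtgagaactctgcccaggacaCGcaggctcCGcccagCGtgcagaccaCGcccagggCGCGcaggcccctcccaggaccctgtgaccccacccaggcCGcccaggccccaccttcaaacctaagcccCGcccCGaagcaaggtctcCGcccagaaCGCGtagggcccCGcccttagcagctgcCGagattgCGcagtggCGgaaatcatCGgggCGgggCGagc
Uhrf1 promoter: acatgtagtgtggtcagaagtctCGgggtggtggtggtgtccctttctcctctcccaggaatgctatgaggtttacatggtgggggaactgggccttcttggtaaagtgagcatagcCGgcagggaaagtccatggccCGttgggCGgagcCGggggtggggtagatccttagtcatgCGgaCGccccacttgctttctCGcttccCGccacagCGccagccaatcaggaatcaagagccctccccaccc

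The de novo methyltransferases themselves were at low levels. Dnmt3a (chromosome 12, 3806007 to 3914443, plus strand) was at 0.116, 0.306 and 0.170 FPKM in WT1 to WT3, and at 0.395, 0.731 and 0.577 FPKM in KO1 to KO3. The genotypes did not overlap, but the gene lay below the 1 FPKM needed for the test. When every gene with a value above 0 was fitted, the difference did not pass (log2 fold change 0.39, SE 0.14, limma adjusted p 0.16). Dnmt3b (chromosome 2, 153649450 to 153687730, plus strand), the de novo enzyme known mainly from the embryo, was listed at 0 in WT1 and WT3 and KO1. It was at 0.0595 FPKM in WT2 and at 0.174 and 0.0625 FPKM in KO2 and KO3. By the estimate of relative depth the deeper libraries are the Lsm14b-KO ones, and at such values no difference was detectable.

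Dnmt3l (chromosome 10, 78041947 to 78063622, plus strand), the cofactor of DNMT3A, was at 2.67, 2.58 and 2.84 FPKM in WT1 to WT3. In KO1 to KO3 it was at 2.65, 3.65 and 3.77 FPKM, so KO1 lay within the WT range and the other two above it. The fitted log2 fold change was 0.23 (SE 0.20, limma adjusted p 0.40), and it was positive without passing in all 16 alternatives. Aire, which lies on the opposite strand and shares no exon base with the Dnmt3l transcript used here, was at 0 in the WT libraries and at most 0.135 FPKM in Lsm14b-KO.

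The maintenance genes Dnmt1 and Uhrf1 were both higher in each Lsm14b-KO library than in any WT library. Uhrf1 (chromosome 17, 56303321 to 56323486, plus strand), whose protein recruits DNMT1 to newly replicated DNA, was at 5.52, 6.03 and 5.20 FPKM in WT1 to WT3. It was at 8.55, 38.4 and 18.7 FPKM in KO1 to KO3. KO1 was 1.53-fold, KO3 3.35-fold and KO2 6.88-fold above the WT mean, so the groups did not overlap but the Lsm14b-KO libraries differed widely among themselves. The mean was 5.59 ± 0.417 FPKM in WT and 21.9 ± 15.2 FPKM in Lsm14b-KO libraries (SD, n = 3 each).

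The rise of Uhrf1 was close to the threshold (log2 fold change 1.57, SE 0.47, limma adjusted p 0.048, exact permutation p 0.10). It was positive in all 16 alternatives and passed in 8 of them. Leaving out any 1 of WT1 to WT3, KO2 or KO3 ended the call, with adjusted p-values of 0.15, 0.13 and 0.15 without WT1 to WT3, and 0.080 and 0.15 without KO2 and KO3. Without KO1 the adjusted p fell to 0.0026. One other annotated gene, Gm5648, holds a near-identical copy of Uhrf1 sequence, and how reads were split between them is not stated.

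Dnmt1 (chromosome 9, 20907209 to 20959888, minus strand), the maintenance methyltransferase, was at 16.7, 16.2 and 17.8 FPKM in WT1 to WT3. It was at 22.4, 51.9 and 32.8 FPKM in KO1 to KO3. The coefficient of variation was 4.97% among WT and 41.8% among Lsm14b-KO libraries, where the order of the libraries was the same as for Uhrf1. Some genes outside the main group, such as Hdac2 and Atrx, had this order too, so it is not particular to Dnmt1 and Uhrf1. The group means were 16.9 ± 0.838 and 35.7 ± 14.9 FPKM (SD, n = 3 each), a 2.12-fold ratio. The log2 fold change of 0.96 (SE 0.34) missed the threshold (limma adjusted p 0.075). It passed when libraries were scaled to equal FPKM sums (log2 fold change 1.63, adjusted p 0.044), after quantile normalization (1.44, adjusted p 0.043) and without KO1 (1.24, adjusted p 0.0065). It was positive in all 16 alternatives, with adjusted p-values up to 0.20.

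Dppa3 (chromosome 6, 122626410 to 122630272, plus strand) codes for the protein that protects maternal methylation and also restrains UHRF1 in the oocyte. It was at 47684, 44721 and 34582 FPKM in WT1 to WT3, and at 63633, 19433 and 34753 FPKM in KO1 to KO3. The highest and the lowest of the 6 values were both from Lsm14b-KO libraries, and the fitted difference did not pass (log2 fold change -0.26, SE 0.41, limma adjusted p 0.65). As a share of the summed FPKM it was 3.83%, 3.82% and 3.03% in WT1 to WT3, and 6.18%, 3.44% and 5.14% in KO1 to KO3. The sign of the difference depended on the scaling: it was 0.43 with libraries scaled to equal sums, 0.27 after quantile normalization and 0.50 after correction for transcript length and GC content, and none of these passed. One pseudogene, Dppa3-ps, holds near-identical sequence.

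Tet3 (chromosome 6, 83362373 to 83459084, minus strand), the dioxygenase that oxidizes methylcytosine in the zygote, was at 4.46, 4.23 and 5.08 FPKM in WT1 to WT3. It was at 3.30, 7.07 and 3.17 FPKM in KO1 to KO3, so that 2 Lsm14b-KO libraries lay below and 1 above the whole WT group. Its fitted difference was -0.09 (SE 0.29, limma adjusted p 0.83), and it became 0.49 with libraries scaled to equal sums and 0.06 after quantile normalization, without passing.

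Zfp57 (chromosome 17, 37001163 to 37010635, plus strand), the guardian of imprinted regions, was at 211, 197 and 285 FPKM in WT1 to WT3. In KO1 to KO3 it was at 234, 954 and 748 FPKM. KO1 thus lay inside the WT range, at 1.01-fold the WT mean, while KO2 and KO3 were 4.13-fold and 3.24-fold above it. The log2 fold change of 1.27 (SE 0.53) did not pass (limma adjusted p 0.11), and it passed in 1 of 16 alternatives, the one without KO1 (1.88, adjusted p 0.0014).

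The Lsm14b-KO libraries differed among themselves in most of these mRNAs. Relative to the WT mean, Uhrf1, Dnmt1, Zfp57, Dnmt3a and Tet3 were at their highest in KO2, as was Kdm1b, whereas Dnmt3l was highest in KO3 and Dppa3 in KO1. In KO1 Kdm1b was 4.73-fold, Uhrf1 1.53-fold, Dppa3 1.5-fold and Dnmt1 1.33-fold above the WT mean. Without that library 4 of the 7 tested genes passed, Kdm1b, Uhrf1, Dnmt1 and Zfp57, all of them higher, but 45.3% of all tested genes passed as well.

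The scaling of the libraries also moved these values. Scaling to equal FPKM sums shifted the median log2 fold change of all tested genes by 0.48, from -0.08 to 0.40, and turned the split of calls from 408 higher and 975 lower to 833 higher and 486 lower. Quantile normalization shifted the median by 0.14 (540 higher, 735 lower), and correction for length and GC content by 0.18 (649 higher, 788 lower). Relative to the median of all genes under each, Kdm1b was at 2.35, 2.44 and 1.83, and Uhrf1 at 1.81, 1.82 and 1.32. Zfp57 was at 1.56, 2.0 and 1.19 and Dnmt1 at 1.23, 1.37 and 0.61. Dppa3 was at 0.03, 0.20 and 0.39, and Tet3 at 0.09, -0.01 and -0.44. Kdm1b and Uhrf1 were past the threshold under all 3.

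**Figure D2:**
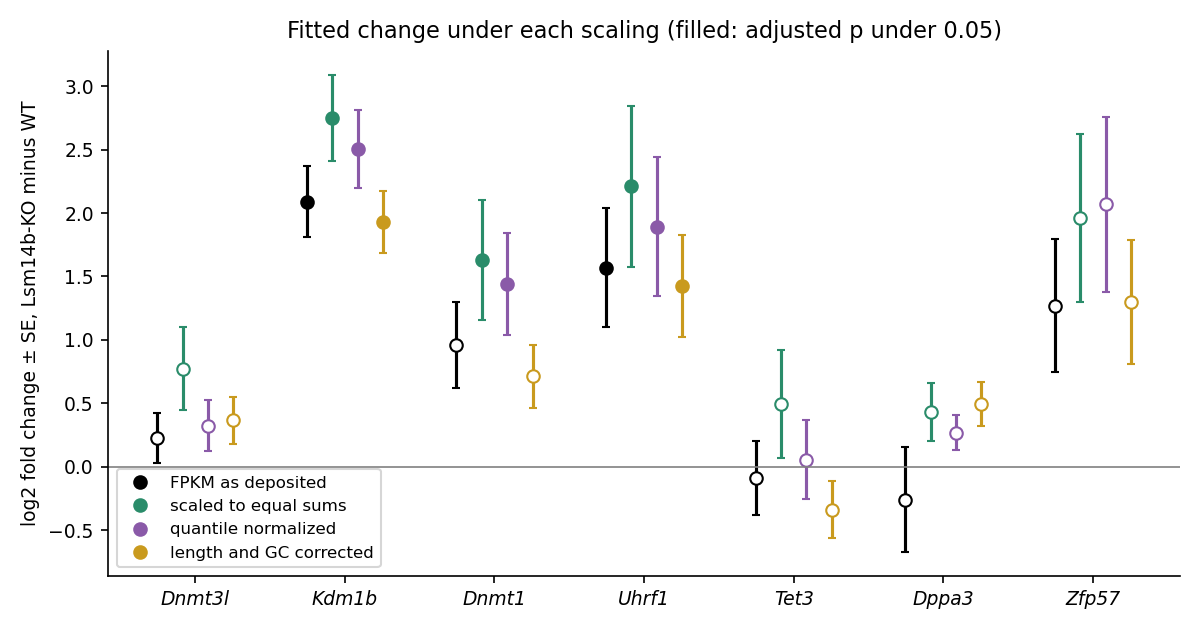
Fitted log2 fold change (Lsm14b-KO minus WT) of the 7 tested genes, with SE bars, for FPKM as deposited and for 3 other scalings; filled points have an adjusted p under 0.05. Kdm1b and Uhrf1 are filled under all 4, Dnmt1 under 2, and Dppa3 and Tet3 change sign.

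Fitted changes varied with transcript length, so each gene was set beside genes of like length. The median log2 fold change was -0.62 for the 948 tested genes under 1000 nt and rose class by class to 0.34 for the 735 genes of 5000 nt or more. Kdm1b (4987 nt) was above 99.5% and Uhrf1 (3586 nt) above 98.2% of the 1500 genes between 3000 and 5000 nt, whose median was 0.23. Zfp57 (2597 nt) was above 97.3% of its class of 1302 genes, and Dnmt1 (5543 nt) above 89.7% of its class. Dppa3 (833 nt) was above 69.3% and Dnmt3l (1822 nt) above 74.7% of their classes, and Tet3 (10904 nt) above 26.9%. These are descriptions with no test.

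**Figure D3:**
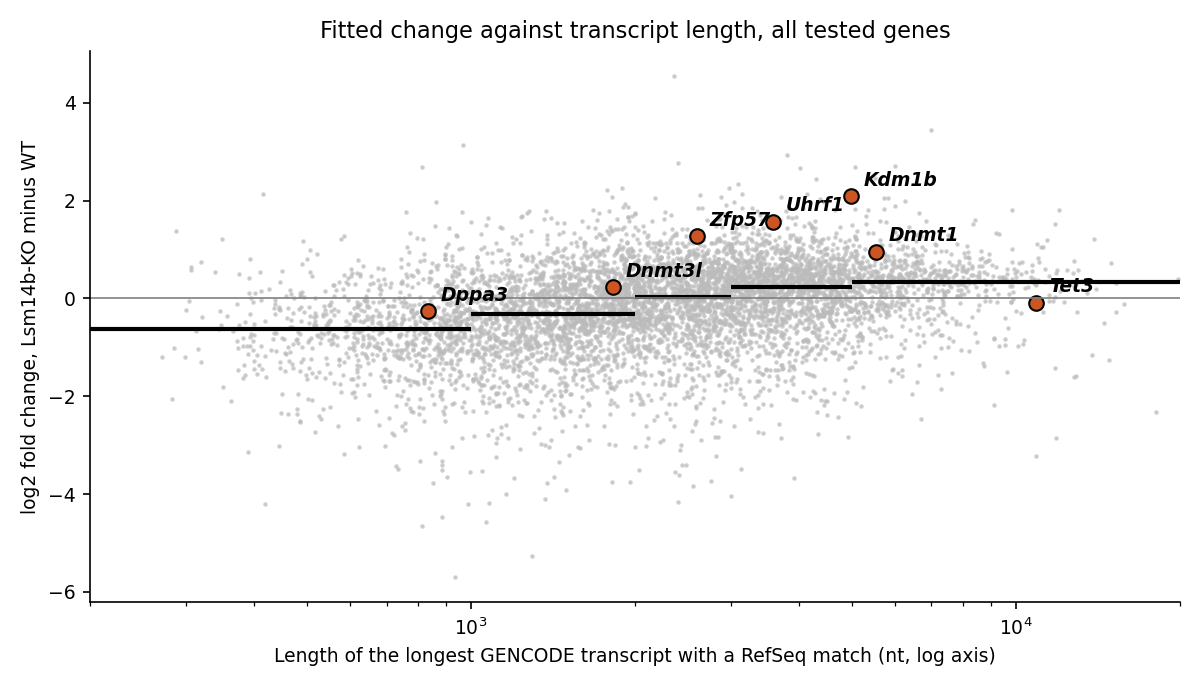
Fitted log2 fold change against transcript length (log axis) for all tested genes with a length (gray), with the 7 genes marked and black bars for the median of each length class. Medians climb from -0.62 to 0.34, and Kdm1b, Uhrf1 and Zfp57 lie well above the medians of their classes.

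Ratios between these mRNAs within a library were examined next, since a single scaling factor per library cancels in them. The correction for length and GC content does not cancel. With 3 libraries against 3 no exact test can go below a p of 0.10, so no ratio can pass a threshold of 0.05. How often ratios of other gene pairs separate the genotypes was not computed. Taken singly, 45.0% of all tested genes did not overlap between the genotypes, so a ratio that separates them is a description only. The Tet3/Dnmt1 ratio, of the oxidase to the maintenance enzyme, was 0.267, 0.262 and 0.286 in WT1 to WT3 and 0.147, 0.136 and 0.0964 in KO1 to KO3. All 3 Lsm14b-KO values, KO1 included, were below the WT values, by 2.18-fold on average (log2 difference -1.12, exact permutation p 0.10). The Uhrf1/Dnmt1 ratio was 0.331, 0.373 and 0.292 in WT and 0.381, 0.740 and 0.570 in KO1 to KO3. Its groups also did not overlap (log2 difference 0.72, p 0.10), though KO1 was barely above WT2.

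The Dppa3/Uhrf1 ratio, of the restraining factor to its partner, was 6645 to 8638 in WT libraries. It was 7442 in KO1, within the WT range, and 506 and 1857 in KO2 and KO3 (log2 difference -1.98, exact permutation p 0.30). The difference was -0.93 after correction for length and GC content, -2.96 without KO1 and -1.02 without KO2. The Zfp57/Dppa3 ratio overlapped in the same way, at 0.00441 to 0.00824 in WT and 0.00368, 0.0491 and 0.0215 in KO1 to KO3 (log2 difference 1.53, p 0.40). Here it was 0.80 after the same correction, 2.58 without KO1 and 0.71 without KO2. The Dnmt3a/Dnmt3l ratio was 0.0434, 0.119 and 0.0598 in WT and 0.149, 0.200 and 0.153 in Lsm14b-KO (log2 difference 1.30, p 0.10), and it rests on Dnmt3a values below 1 FPKM. The Kdm1b/Dnmt3a ratio overlapped between the genotypes (log2 difference 0.61, p 0.50). The Dnmt3b/Dnmt3a ratio was not formed because Dnmt3b was listed at 0 in 3 libraries.

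**Figure D4:**
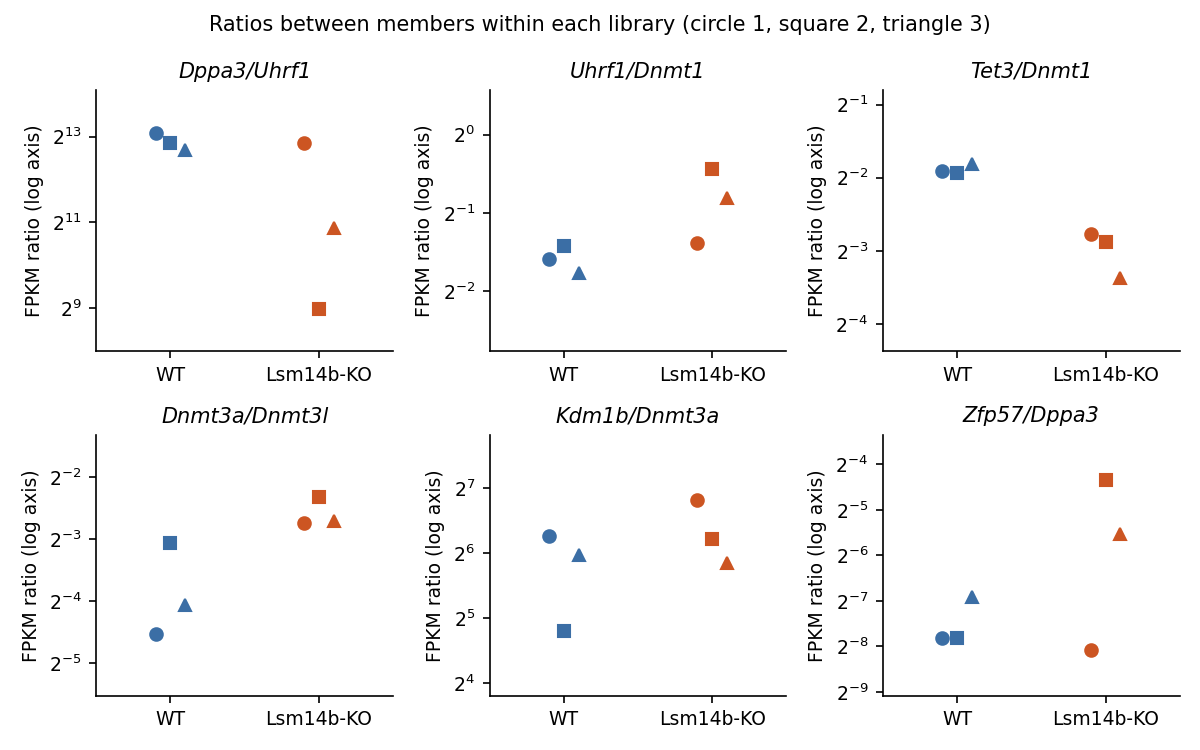
FPKM ratios of 6 gene pairs in each library, on log axes, with WT in blue and Lsm14b-KO in orange and symbols for replicates. Tet3/Dnmt1 separates the genotypes, at 0.262 to 0.286 in WT against 0.0964 to 0.147 in Lsm14b-KO, while Dppa3/Uhrf1 does not. How often ratios of other gene pairs separate was not computed.

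The wider pathway was then described with 7 lists of further genes, 93 symbols in all, of which 91 were in the table and 35 were tested. Of these 35, 8 passed as higher and 4 as lower in Lsm14b-KO FGOs, beside 6.38% higher and 15.2% lower among all tested genes, and their median log2 fold change was 0.52, against -0.08 for all tested genes. Of the 35, 10 reached 1 FPKM only in Lsm14b-KO and 2 only in WT libraries, which favors a difference in that direction. Among the 23 that reached it in both genotypes 4 passed as higher and 2 as lower, with a median of 0.34. Most of the pathway was too low to test, since 56 of the 91 genes never reached 1 FPKM, and 11 were listed at 0 in every library. Among these were Tdg, the glycosylase that removes oxidized methylcytosine, and Ehmt2, a H3K9 methyltransferase. Trdmt1, a relative of the DNA methyltransferases that methylates RNA, was the single tested gene of its list and passed as lower, at 1.31 ± 0.386 FPKM (SD, n = 3) in WT and 0, 0.435 and 0.244 FPKM in KO1 to KO3 (limma adjusted p 0.029). It reached 1 FPKM only in WT libraries, has a mean below 1 FPKM and was named after its value was seen, and it no longer passed without any 1 of WT1 to WT3 or KO3 (adjusted p 0.052 to 0.10).

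Of the 9 maintenance partners 4 were tested and 1 rose. Usp7, the deubiquitinase that binds DNMT1 and UHRF1, was at 0.679, 0.937 and 1.23 FPKM in WT and 1.65, 4.63 and 2.84 FPKM in KO1 to KO3 (log2 fold change 0.99, SE 0.29, limma adjusted p 0.047). The Lsm14b-KO libraries were in the same order as for Uhrf1 and Dnmt1. Genes of the lists that did not pass, such as Hdac2, Setdb1 and Atrx, had this order too, while others, such as Pcna, did not. The order is thus not particular to the maintenance genes. Usp7 passed in 7 of 16 alternatives. Of the 6 analyses without 1 library, Usp7 passed only without KO1, with adjusted p-values of 0.10 to 0.16 in the others. Of the 12 genes of chromatin that sets de novo methylation 4 were tested and 1 rose, Setd2, the H3K36 methyltransferase. It was at 0.939 ± 0.206 FPKM (SD, n = 3) in WT and 2.02, 9.25 and 4.43 FPKM in KO1 to KO3 (log2 fold change 1.51, SE 0.40, limma adjusted p 0.035) and passed in 10 of 16 alternatives. Of those without 1 library it, too, passed only without KO1, with adjusted p-values of 0.058 to 0.12 in the others.

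Of the 14 genes of imprint protection and repression 10 were tested and 2 passed, both higher and both with a mean below 1 FPKM. Neither reached 1 FPKM in a WT library, so both were tested only through the genotype in which they were higher, and their calls are no support for a change of the list. They were named after their values were seen: Trim28, the corepressor that ZFP57 recruits, at 0.473 ± 0.128 FPKM in WT and 1.29 ± 0.115 FPKM in Lsm14b-KO (SD, n = 3 each), and Cbx3, a heterochromatin protein, at up to 0.287 FPKM in WT and at 1.35, 1.18 and 1.43 FPKM in KO1 to KO3. For both, all 3 Lsm14b-KO values were close together, KO1 included. Their adjusted p-values were 0.045 and 0.013 in limma. Trim28 no longer passed without any 1 of WT1 to WT3, KO2 or KO3 (adjusted p 0.092 to 0.13), and Cbx3 no longer passed without KO3 (0.068). None of the 3 tested genes of oxidation and base repair passed, nor did Zbtb33, the only tested reader of methylated DNA. Their log2 fold changes were -0.01 for the nuclease Apex1, 0.11 for the glycosylase Smug1, 0.63 for the glycosylase Ung and 0.52 for Zbtb33.

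Imprinted genes moved in both directions. All 36 such genes had a row, 8 were at 0 in every library and 12 were tested. Of these 12, 4 passed as higher and 3 as lower, beside 6.38% higher and 15.2% lower among all tested genes. Their median log2 fold change was -0.02. Of these 7 calls 3, Impact, Inpp5f and Mcts2, were of genes that reached 1 FPKM in 1 genotype only. Commd1, a regulator of copper handling, fell from 748 ± 72.9 FPKM in WT to 184 ± 77.5 FPKM in Lsm14b-KO (SD, n = 3 each, log2 fold change -2.09, limma adjusted p 0.0079). Phlda2, a growth restrainer in the placenta, was at 13.1, 7.94 and 7.22 FPKM in WT and 1.997, 0.279 and 0 FPKM in KO1 to KO3 (log2 fold change -2.69, adjusted p 0.0058). Mcts2, a retrogene inside H13, was at 3.36 ± 0.889 FPKM in WT and 0.358 ± 0.140 FPKM in Lsm14b-KO (SD, n = 3 each, log2 fold change -1.67, adjusted p 0.0031), while its host H13 did not pass (0.05, adjusted p 0.92). In each of these 3 genes, named because they passed, every KO library was lower than every WT library. The genotypes did not overlap, in either direction, in 45.0% of all tested genes. Commd1 missed the threshold without WT1 (adjusted p 0.054), WT2 (0.053) or KO3 (0.055), and the other two passed without any 1 library. The fitted value of Phlda2, with a 0 in KO3, depends on the pseudocount and was -4.42 at 0.1 and -5.66 at 0.01. At 0.01 Phlda2 no longer passed (limma adjusted p 0.058). After correction for length and GC content the fitted value was -2.07 for Phlda2 and -2.25 for Commd1. That of Mcts2 shrank to -0.99, close to the threshold (limma adjusted p 0.049). Mcts2 reached 1 FPKM only in WT libraries and so was tested only through the genotype in which it was higher. Mcts2 arose as a copy of Mcts1, and reads could be shared between them.

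Gnas, which codes for the stimulatory G protein alpha subunit, rose from 6.30 ± 1.14 to 16.2 ± 3.05 FPKM (SD, n = 3 each, log2 fold change 1.23, limma adjusted p 0.015). Ube3a, a ubiquitin ligase, rose from 1.18 ± 0.226 to 3.42 ± 0.725 FPKM (SD, n = 3 each, log2 fold change 1.01, adjusted p 0.015). Both were higher in all 3 Lsm14b-KO libraries, as were 19.1% of all tested genes, and each passed in 12 of 16 alternatives. Without WT1, WT2, WT3 or KO3 the adjusted p was 0.086, 0.073, 0.053 and 0.081 for Gnas and 0.078, 0.070, 0.0502 and 0.068 for Ube3a. The 2 further imprinted genes that passed as higher, Impact and Inpp5f, had means below 1 FPKM, reached 1 FPKM only in Lsm14b-KO libraries, and were named after their values were seen, with log2 fold changes of 0.96 and 0.80. Impact did not pass without WT2 (adjusted p 0.052) or KO3 (0.077), and Inpp5f passed only without KO1 among the analyses that left out 1 library.

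**Figure D5:**
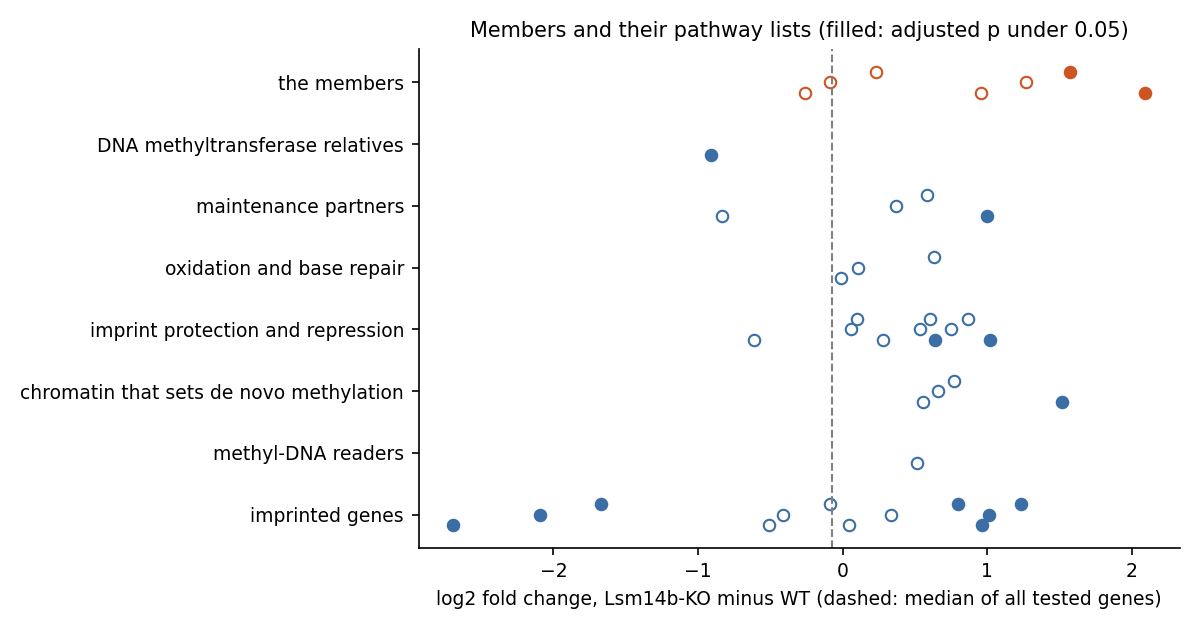
Fitted log2 fold change of the tested genes of each pathway list (blue) and of the 7 tested genes of the main group (orange, top); filled points have an adjusted p under 0.05 and the dashed line is the median of all tested genes, -0.08. Filled points lie on both sides of the line for the imprinted genes, from -2.69 to 1.23.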

How the data were processed

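RNA-Seq values of 3 WT and 3 Lsm14b-KO libraries of GV-stage FGOs were used. Titles and genotype labels gave the groups and replicate numbers. Smart-seq2 amplification was followed, per the labels, by paired-end sequencing. More than 1 library kit is named in the labels, and strand is not stated. Reads were aligned by the authors to mm10 (TopHat2 2.0.13), FPKM came from Cufflinks 2.2.1, and Cuffdiff was run on them. Cuffnorm is also named among the tools, and its part in the FPKM values was not tested. The annotation is not given in the sources used here. The deposited FPKM table also holds the authors' log2 fold changes, p-values and q-values, which were not used.

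A pseudocount of 1 was added to FPKM before taking log2. The 6398 genes that reached 1 FPKM in any library were fitted in R 4.3.3 with limma 3.58.1 (eBayes with trend, genotype as the only term, two-sided), with Benjamini-Hochberg adjustment over all of them and a threshold of 0.05. The fit was first tested on simulated data. The exact permutation test over the 6 libraries, which cannot go below 0.10, was added for single values. The 9 genes, the 7 pathway lists and the marker lists were chosen with earlier results of these data known. The genes named were the 9 genes, Lsm14b, the genes overlapping Kdm1b and Dnmt3l, from each list up to 3 rises and 3 falls that passed with a mean of at least 1 FPKM, the most abundant marker of each list, the tested genes of lists in which none passed, and genes said to be named after their values were seen.

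Coordinates, transcript lengths and GC content come from GENCODE vM21 (GRCm38, the assembly of mm10). Lengths were found for 6321 (98.8%) of the tested genes, as the longest transcript with a RefSeq match. In each library, a loess fit (span 0.5) on length and GC was subtracted for the corrected values. Copies were searched for with blastn 2.17.0 at 95% identity over at least 200 nt. Relative depth was read from the commonest ratio of very low FPKM values in a pair of libraries. No counts were used, so no count model was fitted.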

Additional observations from a re-analysis of the deposited data

How the results depend on the processing

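The 16 alternatives were pseudocounts of 0.1 and 0.01, no filter on low values, a mean of at least 1 FPKM, scaling to equal sums, quantile normalization, correction for length and GC, no trend, robust moderation, a replicate block, and leaving out each library in turn; no cause of the changes below was tested. The number of genes past the threshold (1383) fell to 720 with no filter, where 14325 genes were tested, and ran from 315 to 2898 when 1 library was left out. The number among the 9 genes (2) was 1 at a pseudocount of 0.01, with no filter and with no trend, and 1 to 4 when 1 library was left out. The number of pathway genes (12) was 7 with a mean of at least 1 FPKM and 2 to 17 when 1 library was left out. Uhrf1 no longer passed at a pseudocount of 0.01 (log2 fold change 1.71, adjusted p 0.058), with no filter (1.57, adjusted p 0.11) and with no trend (1.57, adjusted p 0.051), and its log2 fold change was 1.06 to 2.08 when 1 library was left out. Dnmt1 passed with equal sums (1.63) and after quantile normalization (1.44), and was at 0.66 to 1.24 when 1 library was left out, while Zfp57 was at 0.87 to 1.88. Tet3 turned from -0.09 to 0.49 with equal sums, 0.056 after quantile normalization, 0.055 without KO1 and 0.078 without KO3, and was as low as -0.40 when 1 library was left out. Dppa3 turned from -0.26 to 0.43 with equal sums, 0.27 after quantile normalization, 0.50 after correction for length and GC and 0.17 without KO2, and was as low as -0.69 without KO1. With a pseudocount of 1 on both genes, the log2 differences of Dnmt3a/Dnmt3l and Kdm1b/Dnmt3a moved from 1.30 to 0.16 and from 0.61 to 1.71. Kdm1b and Lsm14b passed in all 16 alternatives.

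Genotypes share replicate numbers, but same-numbered libraries did not deviate together (r of 0.19, -0.13 and 0.02 for numbers 1, 2 and 3), so the numbers were not taken as pairs. With the replicate block 1244 genes, 2 of the 9 genes and 11 pathway genes passed. Dnmt3a and Dnmt3b, below 1 FPKM everywhere, are at the limit of what these libraries resolve.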
